A study of Homo sapiens and Mus musculus with 14 samples.

Results

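Accessible chromatin was examined at 10 genes of ferroptosis and iron handling, SLC7A11, GPX4, AIFM2, ACSL4, LPCAT3, TFRC, FTH1, FTL, NCOA4 and HMOX1, out of 20037 protein-coding genes. The genes were chosen by pathway, and their regions were then selected on the peak calls themselves: every deposited peak in the gene body or within 20 kb of it was taken, whichever list held it. A gene-end peak lies within 1 kb of either annotated end of its gene, and all other peaks were kept apart from these. The rule left 17 peaks of SMARCAL1 knockout clone 1 out of 39537, 12 peaks of knockout clone 2 out of 34572, and 26 control peaks out of 64806. Since any list could supply a peak, the presence of a peak is given as a description and was not tested.

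ATAC-seq, which marks open DNA by transposase insertion, had been run on MDA-MB-436, a human breast adenocarcinoma cell line. Knockout clone 1 (genotype SMARCAL1 knockout, batch 1) had 3 libraries, knockout clone 2 (SMARCAL1 knockout, batch 2) had 2, and the control cells (genotype Control, batch 1) had 3. Each knockout is a single clone, and clone 2 and batch cannot be told apart. The libraries of each group had been merged into 1 peak list before deposit, so no value below has a replicate error, and the 6 libraries of mouse B16F10 melanoma cells were not analysed here.

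Ferroptosis is a form of cell death driven by iron-dependent peroxidation of membrane phospholipids. Cells oppose it by importing cystine for glutathione, which GPX4 uses to reduce lipid peroxides, and by trapping radicals with reduced ubiquinone. They promote it by loading membranes with polyunsaturated fatty acids and by enlarging the pool of free iron, which is set by uptake through the transferrin receptor, storage in ferritin, release from ferritin by autophagy, and haem breakdown. Breast cancer lines with mesenchymal features are often described as sensitive to this form of death.

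The deposited score of a peak is taken for the authors' −log10 p. It also varies with sequencing depth and caller settings, so scores are read within a list only. The median score was 6.07 in clone 1, 11.0 in clone 2 and 6.26 in control, and the median width was 453, 200 and 399 bp in the same order. Read totals were not used here, so the depth behind a peak is unknown. Of 6 genes fixed as markers of mesenchymal-like breast cancer cells, 4 had a gene-end peak in clone 1, 3 in clone 2 and 6 in control. Over all protein-coding genes 50.2%, 43.0% and 60.7% had one in the same order. VIM, CAV1 and TWIST1 had one in all 3 lists, ZEB1 in clone 1 and control, and AXL and CD44 in control only. Of 4 basal genes only EGFR had one, in all 3 lists, and of 4 leukocyte genes only PTPRC, in clone 2. The melanocyte genes MITF and PMEL, 2 of 4, had a gene-end peak in all 3 lists. Of 6 epithelial and luminal genes, EPCAM and FOXA1 had one in all 3 lists, CDH1 in clone 1 only and KRT18 in control only. An open gene end is not a measure of expression, and sets of 4 or 6 genes are too few to identify a cell type.

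The promoters of 5 genes, 1 or more for each pattern of presence described below, show the DNA that the gene-end peaks cover. Each is the 250 bases before the outermost RefSeq start (GRCh38.p14), 5′ to 3′ on the strand of the gene. Capitals mark matches on either strand to an antioxidant response element core (TGACNNNGC, bound by NRF2 with a small MAF partner), an AP-1 site (TGANTCA), the motif known as the CCAAT box, or the motif TATAAA of TATA boxes. The lines hold LPCAT3 (chr12:7018477-7018726, minus strand, peaks in all 3 lists), ACSL4 (chrX:109733258-109733507, minus strand, peaks in clone 2 and control), GPX4 (chr19:1103744-1103993, plus strand, peaks in clone 1 and control), AIFM2 (chr10:70132826-70133075, minus strand, peaks in clone 1 and control) and FTL (chr19:48965059-48965308, plus strand, a peak in control only).
LPCAT3: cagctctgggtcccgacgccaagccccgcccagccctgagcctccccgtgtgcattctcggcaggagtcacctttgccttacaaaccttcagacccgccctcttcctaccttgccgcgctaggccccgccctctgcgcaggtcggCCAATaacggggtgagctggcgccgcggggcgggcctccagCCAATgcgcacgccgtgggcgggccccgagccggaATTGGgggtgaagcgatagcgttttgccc
ACSL4: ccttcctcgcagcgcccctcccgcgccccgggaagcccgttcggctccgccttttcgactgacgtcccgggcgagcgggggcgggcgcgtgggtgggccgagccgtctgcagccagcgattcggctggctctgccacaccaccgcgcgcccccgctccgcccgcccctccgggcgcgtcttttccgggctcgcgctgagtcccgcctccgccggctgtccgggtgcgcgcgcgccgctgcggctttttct
GPX4: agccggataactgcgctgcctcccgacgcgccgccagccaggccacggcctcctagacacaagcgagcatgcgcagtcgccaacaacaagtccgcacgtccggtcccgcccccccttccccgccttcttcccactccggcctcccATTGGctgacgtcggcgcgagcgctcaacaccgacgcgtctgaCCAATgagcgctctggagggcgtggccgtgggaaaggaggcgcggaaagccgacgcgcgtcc
AIFM2: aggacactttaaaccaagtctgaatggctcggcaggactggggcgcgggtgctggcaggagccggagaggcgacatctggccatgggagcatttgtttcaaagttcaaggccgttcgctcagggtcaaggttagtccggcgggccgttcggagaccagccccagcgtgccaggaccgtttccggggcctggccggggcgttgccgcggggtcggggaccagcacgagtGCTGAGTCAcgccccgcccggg
FTL: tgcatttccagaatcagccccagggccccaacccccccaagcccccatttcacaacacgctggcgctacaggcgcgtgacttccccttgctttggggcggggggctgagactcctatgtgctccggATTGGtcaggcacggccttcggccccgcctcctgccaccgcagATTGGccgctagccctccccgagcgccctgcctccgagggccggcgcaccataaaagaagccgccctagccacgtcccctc

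RefSeq windows of this kind were matched for 7 of the 10 genes. AIFM2 had the 1 antioxidant response element core among them, and it overlaps an AP-1 match by all 7 AP-1 bases. Over 35116 RefSeq promoter windows of the same length, 10.9% held the first motif and 6.57% the second. CCAAT boxes were found in GPX4 with 2 matches, LPCAT3 with 3 and FTL with 2, against 32.0% of all windows with at least 1. TFRC held the 1 TATA box (10.7% of all windows) and NCOA4 an AP-1 match. ACSL4 held none of these motifs and had the highest G and C content of the 7, 77.2%, with 42 CpG steps, while NCOA4 had the lowest, 52.0%, with 12. The median over all windows was 58.0%. These matches describe letters, not bound factors.

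Gene-end peaks were found at 6 of the 10 genes in clone 1, at 5 in clone 2 and at all 10 in control. Over all protein-coding genes the shares with a gene-end peak were 50.2%, 43.0% and 60.7% in the same order. Of the 10 control gene ends, 4 had no gene-end peak in clone 1 (40%, exact binomial 95% interval 12.2 to 73.8), against 21.1% of all 12168 genes with a control gene-end peak. In clone 2, 5 had none (50%, 18.7 to 81.3), against 30.1% of all such genes. Both clones lacked the peak at FTL and HMOX1 (20%, 2.52 to 55.6), against 15.9%, and both had it at SLC7A11, LPCAT3 and NCOA4 (30%, 6.67 to 65.2), against 64.7%. The intervals cover counting error only, and each of the 4 holds the value over all genes. Since score and presence go together in these lists, the share of like-score control gene-end peaks (within 10% of the score) found in a clone was also taken for each gene. These shares add up to 7.07 genes for clone 1 and 6.27 for clone 2, beside the 6 and 5 observed.

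**Figure D1:**
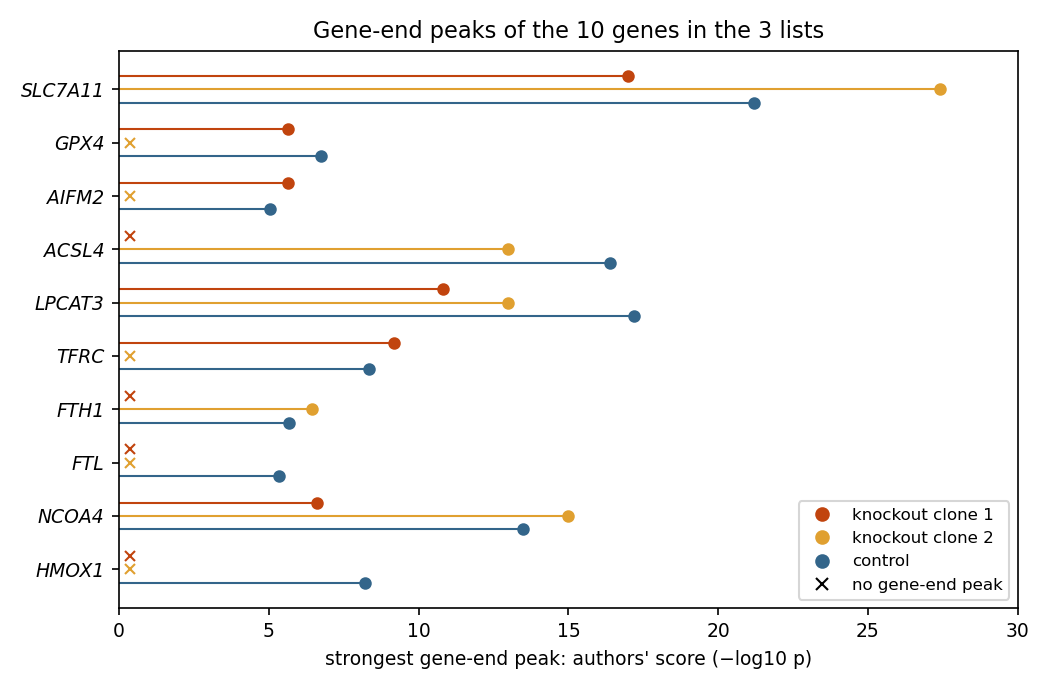
Strongest gene-end peak of each gene in knockout clone 1, knockout clone 2 and control; the x axis is the authors' score (−log10 p) and a cross marks a gene with no gene-end peak in that list. SLC7A11 had the highest score of the 10 genes in all 3 lists, FTL and HMOX1 had a peak in control alone, and scores are not comparable between lists.

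SLC7A11, the transporter subunit of the cystine and glutamate antiporter, lies at chr4:138164097-138242349. Its gene-end peak had a score of 17.0 in clone 1, 27.4 in clone 2 and 21.2 in control, the highest of the 10 genes in each list. Among all genes with a gene-end peak these stood at the 97.1, 95.2 and 93.5 percentile of their lists. The peak was 706 bp wide in clone 1, 436 bp in clone 2 and 1404 bp in control, all across the higher annotated end of the gene. The control score is a mean over at least 4 merged calls, as its decimals show. Control had 3 libraries, so a number of calls is not a number of libraries. A peak inside the gene, 6174 bp from that end in control, had 6.06 in clone 1, 19 in clone 2 and 8.04 in control. A further peak, 4884 bp beyond the lower end in control, had 6.04 in clone 1, 14.5 in clone 2 and 9.55 in control. Control held 2 more peaks inside the gene that neither clone had, with scores of 5.81 and 7.91. The weaker was 124 bp wide, and control peaks of like score were found at 21.6% in clone 1 and 20.1% in clone 2. Of control peaks scoring like the stronger, 56.7% were found in clone 1 and 61.7% in clone 2.

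GPX4, the selenoenzyme that reduces phospholipid hydroperoxides with glutathione, lies in a gene-dense stretch of chromosome 19 (chr19:1103994-1106779). A peak across its start had 5.63 in clone 1 and 6.75 in control, and clone 2 had no peak anywhere in the window. The control score is a mean over at least 3 merged calls. Of control gene-end peaks scoring alike, 58.7% were found in clone 1 and 42.5% in clone 2. Clone 1 held a second gene-end peak, 704 bp past the start, with a score of 5.12 and no control peak under it. It is 1 of the 2 gene-end peaks closest to the 1 kb limit; the other is a control peak of ACSL4 at 732 bp with a score of 5.03.

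AIFM2 encodes FSP1, an oxidoreductase that keeps ubiquinone reduced and so acts beside GPX4 (chr10:70112271-70132825). Its start was covered by a peak of 5.64 in clone 1 and of 5.05 in control, and by none in clone 2. The control score stood at the 1.12 percentile of control gene-end scores, and 25.3% and 11.4% of like-score gene-end peaks were found in clone 1 and clone 2. The clone 1 peak covered 166 of the 250 promoter bases printed above, the control peak 160, and both include the antioxidant response element match, which begins 22 bases before the start. The only clone 2 peak in the window, at 11.8, lies between TYSND1 and SAR1A, 2 neighbouring genes whose shared control peak scored 7.63 and whose clone 1 peak scored 7.05. A control peak of 5.06 inside AIFM2 was in neither clone.

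ACSL4, which activates polyunsaturated fatty acids for entry into phospholipids, had a strong control peak that clone 1 lacked. Clone 1 had no peak in the gene (chrX:109641335-109733257) or its flanks. Clone 2 had a peak of 13.0 across the start, 336 bp wide, and control a peak of 16.4, 764 bp wide. The whole printed promoter was covered in clone 2 and in control, and no base of it in clone 1. Of 963 control gene-end peaks within 10% of that score, 99.9% were found in clone 1 and 99.6% in clone 2. Of the 3546 control peaks scoring at least as high, 2 had no clone 1 peak, and the ACSL4 peak was the 1 gene-end peak of these. Whether the control call came from more than 1 library cannot be read from its score.

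Control also held a 249 bp peak inside ACSL4, 18569 bp from the start, with a score of 13.1. Neither clone had it, whereas 95.7% of control peaks of like score were found in clone 1 and 97.0% in clone 2. These shares are matched on score and not on width. Whether this control call came from more than 1 library cannot be read from its score. Of 6476 control peaks at least as strong, 8 were absent in both clones. A weaker control peak 732 bp inside the start (5.03) was also in neither clone.

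Clone 1 also had few peaks around ACSL4. These regional values were computed after those of ACSL4 had been seen, and the shares leave out the 3 control peaks of the ACSL4 window. In clone 1 the nearest peaks lay 104 kb below and 114 kb above the gene, in clone 2 and control 104 kb below and 107 kb above. Within 1 Mb of the ACSL4 start there were 6 peaks in clone 1, 22 in clone 2 and 21 in control. Of the 18 control peaks left there, 5 were found in clone 1 (27.8%, 9.69 to 53.5) and 15 in clone 2 (83.3%, 58.6 to 96.4). On chromosome X beyond 5 Mb from the start, 39.8% of 2467 control peaks were found in clone 1, which lies within the 1 Mb interval of clone 1, and 49.6% in clone 2, below that of clone 2. Within 5 Mb, 18 of 68 control peaks were found in clone 1 (26.5%, 16.5 to 38.6) and 48 in clone 2 (70.6%, 58.3 to 81). The 39.8% of clone 1 beyond 5 Mb lies above this clone 1 interval, and the 49.6% of clone 2 below this clone 2 interval. These intervals cover counting error only and treat neighbouring peaks as independent. The region was picked because of ACSL4, and no other region of its size is given. No regional difference is therefore inferred from them. Among control peaks scoring above 10, clone 1 had 8 of 12 within 5 Mb (66.7%, 34.9 to 90.1) and 405 of 425 on the rest of the chromosome (95.3%, 92.8 to 97.1). Clone 2 had 11 of these 12 (91.7%, 61.5 to 99.8) and 418 of the 425 (98.4%, 96.6 to 99.3). Copy number around ACSL4 was not tested and cannot be read from merged peak lists. Clone 2 had the ACSL4 start peak and 15 of the 18 control peaks left within 1 Mb. It lacked the inner ACSL4 peak, as clone 1 did. Each knockout is a single clone, and the cause of the missing clone 1 peaks was not tested.

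**Figure D2:**
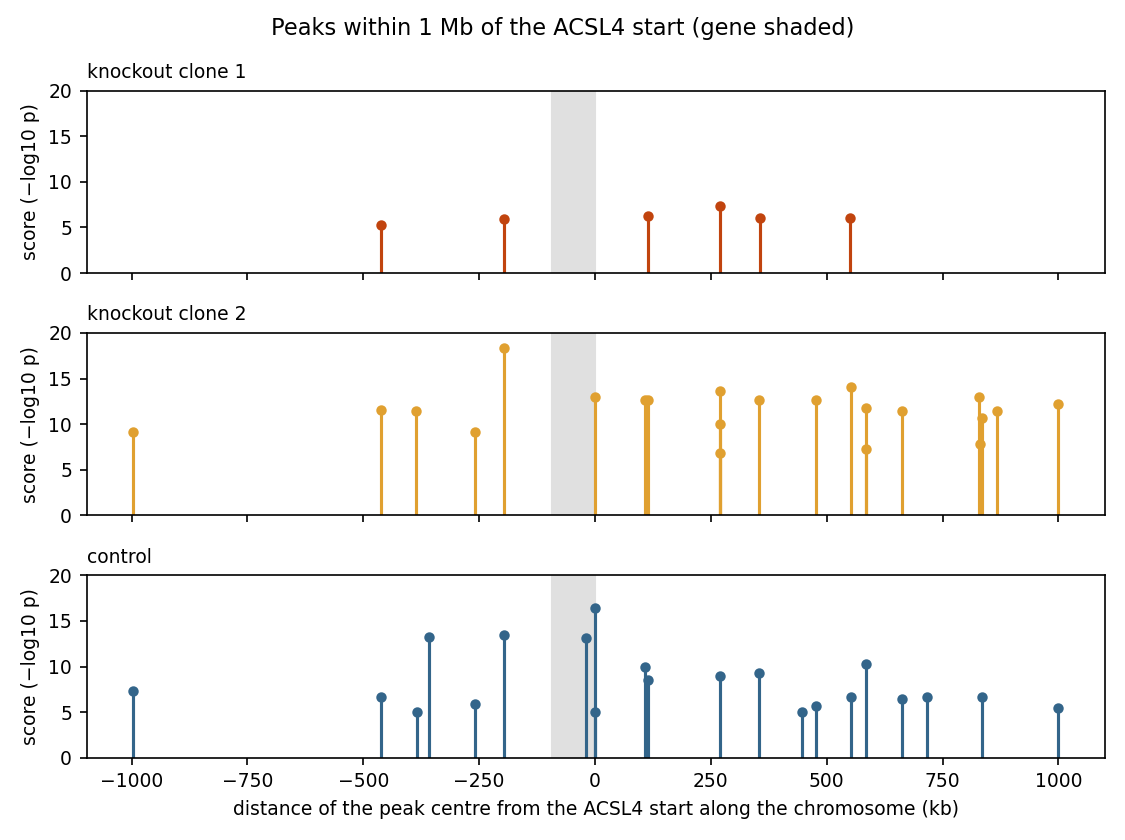
Peaks within 1 Mb of the ACSL4 start in knockout clone 1, knockout clone 2 and control; the x axis is the distance of the peak centre from the start in kb along the chromosome, the height is the authors' score (−log10 p) and the gene is shaded. Clone 1 has 6 peaks and none over the gene, clone 2 has 22 and control 21.

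LPCAT3, the acyltransferase that places polyunsaturated chains into phospholipids, kept its gene-end peak in all 3 lists (chr12:6976185-7018476). The score was 10.8 in clone 1, 13.0 in clone 2 and 17.2 in control, each a mean over at least 3 merged calls. All 250 printed promoter bases lay under a peak in every list, although the peak was 1344 bp wide in clone 1, 564 bp in clone 2 and 1300 bp in control. The neighbouring ends of PHB2 and EMG1 also had a peak in every list, with 7.58 in clone 1, 11.4 in clone 2 and 8.78 in control. The other 2 control peaks of the window, at 5.49 inside the gene and at 5.07 in the flank, were in neither clone. The second lies 19360 bp outside the gene and is the member peak closest to the 20 kb limit. The nearest peak beyond that limit is a control peak 24738 bp from TFRC, with a score of 5.01.

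TFRC, the transferrin receptor through which cells take up iron (chr3:196049284-196082090), had no peak in clone 2. Clone 1 had a peak of 9.19 across the start and a second of 5.95 inside the gene 306 bp away. Control had 1 peak over the same stretch, 1044 bp wide, with a score of 8.36 that is a mean over at least 5 merged calls. Clone 1 peaks covered 84.2% of it and the whole 250 bases before the start. Of control gene-end peaks of like score, 82.3% were found in clone 1 and 72.1% in clone 2. No peak was called in the rest of the TFRC window in any list.

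The ferritin subunit genes had weak control peaks. FTH1 encodes the heavy subunit, which oxidises ferrous iron (chr11:61964285-61967634). Its higher end had no peak in clone 1, a peak of 6.43 in clone 2 and one of 5.66 in control. The clone 2 peak was 185 bp wide and stood at the 1.36 percentile of the clone 2 gene-end scores, while the control peak was 887 bp wide and a mean over at least 5 merged calls. Of like-score control gene-end peaks 33.5% were found in clone 1 and 17.9% in clone 2. A control peak of 9.33, 4044 bp beyond that end, was in neither clone, although 76.1% and 81% of control peaks of like score were found in clone 1 and clone 2. Whether that call came from more than 1 library cannot be read from its score. FTL, the light subunit gene (chr19:48965309-48966879), had a control peak of 5.34 across its start and none in either clone; 27.6% and 14% of like-score gene-end peaks were found in clone 1 and clone 2. The control peak at BAX in the same window, at 6.62, was in neither clone. RefSeq names 27 pseudogenes for FTH1 and 20 for FTL, and how reads that match several places were counted is not given in the sources used here, so peaks in the transcribed parts of both genes are uncertain.

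NCOA4, the receptor that carries ferritin to autophagosomes (chr10:46005088-46030623), had 2 sites open in every list. The peak across the start had 6.62 in clone 1, 15.0 in clone 2 and 13.5 in control. Its percentile among gene-end peaks of the own list was 40.6 in clone 1, 69.1 in clone 2 and 75 in control. A site inside the gene, 6827 bp from the start in control, had 10.1 in clone 1 and 18.2 in control, and in clone 2 it was called as 2 peaks, of 20.2 and 9.79. In all 3 lists the highest score of this inner site was above that of the start. Clone 1 also had a peak of 5.12 at the end of the neighbouring gene TIMM23, 1732 bp from NCOA4, with no control peak under it. It lies just outside the 1 kb limit for NCOA4, as does the HMOX1 peak of clone 1 described next, at 1917 bp.

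HMOX1, the inducible haem oxygenase that frees iron from haem (chr22:35381096-35394207), had a control peak of 8.22 across its lower end and none there in either clone. The control score is a mean over at least 2 merged calls. Of control gene-end peaks of like score, 80.3% were found in clone 1, 70.8% in clone 2, and 10.3% in neither. Clone 1 had instead a peak of 6.11 inside the gene, 1917 bp from that end, where control had none. A control peak of 5.99 in the flank was in neither clone. The end of MCM5, the neighbouring gene, had no peak in clone 1, a peak of 9.90 in clone 2 and one of 5.29 in control.

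**Figure D3:**
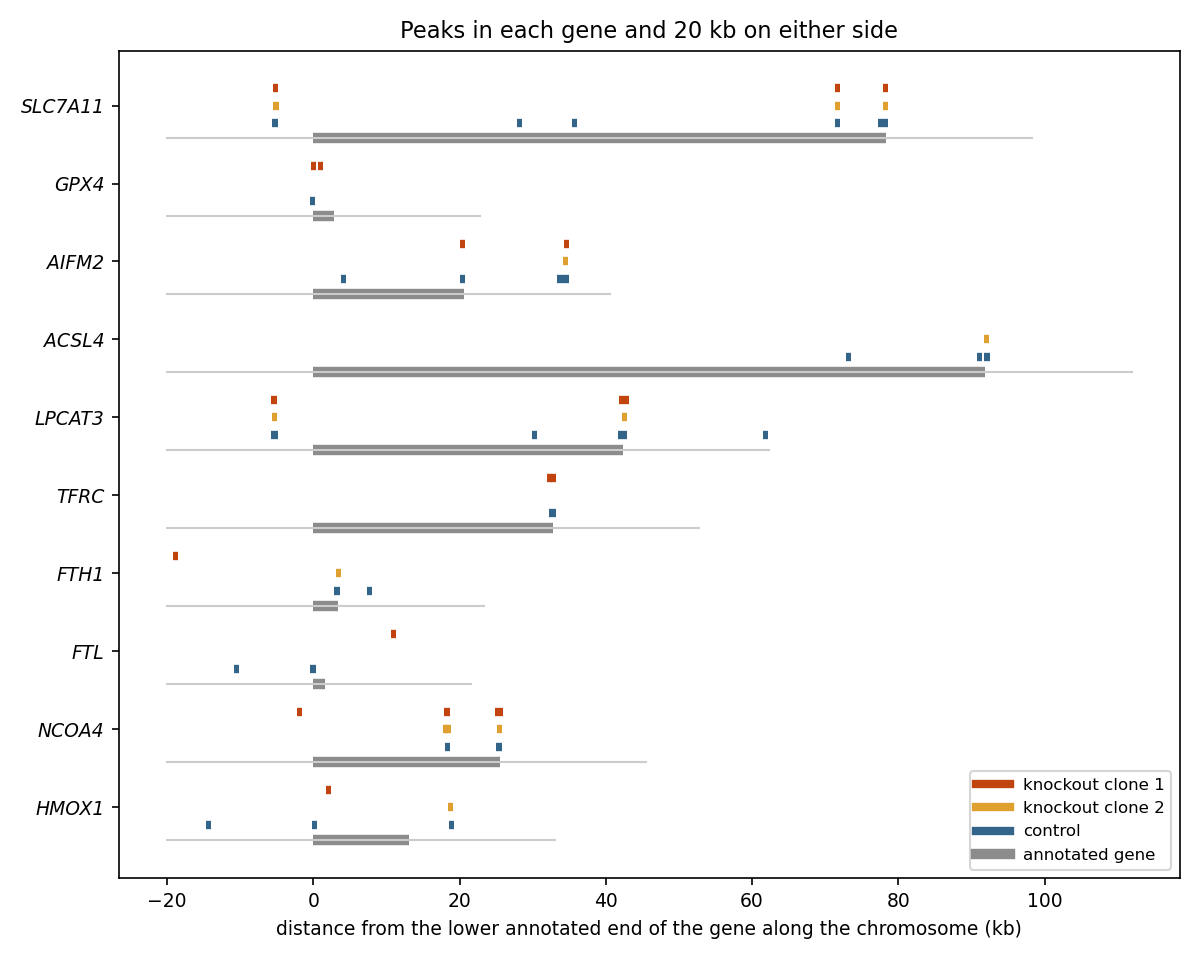
Peaks of knockout clone 1, knockout clone 2 and control (top to bottom in each row) in every gene and 20 kb on either side; the x axis is the distance in kb from the lower annotated end along the chromosome, grey bars are the genes, and short peaks are drawn at a minimum width. The 8 control peaks found in both clones lie in the rows of SLC7A11, AIFM2, LPCAT3 and NCOA4, and clone 1 has no peak in the ACSL4 row.

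**Figure D4:**
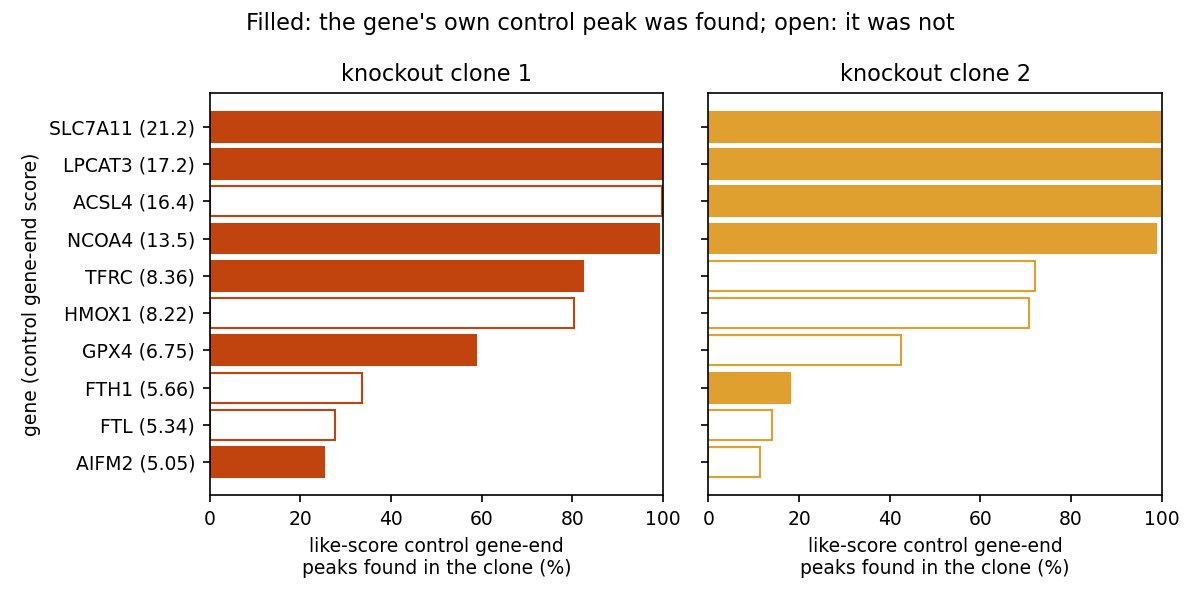
Share of control gene-end peaks scoring within 10% of each gene's own that were found in knockout clone 1 and knockout clone 2 (x axis, percent); genes are ordered by control score, in brackets. Filled bars mark genes whose own control peak was found: ACSL4 in clone 1 is open at 99.9%, and AIFM2 in clone 1 is filled at 25.3%.

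Across the 10 windows, 15 of the 26 control peaks had no overlapping peak in clone 1 (57.7%, 36.9 to 76.6), and likewise 15 in clone 2 (57.7%, 36.9 to 76.6). Over the same kind of window of all protein-coding genes the shares were 54.6% in clone 1 and 55.7% in clone 2, so the members stood near the background. In both clones 12 were absent (46.2%, 26.6 to 66.6), against 44.6%. Of the 11 control gene-end peaks, 5 were absent in clone 1 (45.5%, 16.7 to 76.6), 6 in clone 2 (54.5%, 23.4 to 83.3) and 3 in both (27.3%, 6.02 to 61). Over control peaks at the end of any gene the shares were 27.7%, 36.0% and 21.9% in the same order, all within these intervals. Of the 11 control peaks away from any gene end, 8 were absent in clone 1, in clone 2 and in both (72.7%, 39 to 94), against 65.5%, 63.6% and 53.8% over all such peaks. The 3 gene-end peaks found in both clones, at SLC7A11, LPCAT3 and NCOA4, had control scores of 13.5 to 21.2 and a median width of 1300 bp. The 3 found in neither had 5.03 to 8.22 and a median width of 263 bp, and the 9 other peaks found in neither had 5.06 to 13.1 and 249 bp.

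Peaks without a control counterpart were seen in clone 1 only. Of 17 clone 1 peaks in the windows, 5 overlapped no control peak (29.4%, 10.3 to 56.0), against 27.1% in the windows of all genes: those of GPX4, HMOX1, NCOA4 at TIMM23, FTH1 at RAB3IL1 (5.35) and the FTL flank (5.71). Their scores were 5.12 to 6.11, against a median of 6.07 in that list, and the HMOX1 peak stood at its 51.4 percentile. All 12 clone 2 peaks overlapped a control peak, against 8.20% without one over all genes; 0 of 12 allows a share of up to 25% when 3 counts are taken as the limit, and the exact 95% interval ends at 26.5%. The clone 2 gene-end peaks were 185 to 564 bp wide with a median of 413 bp, those of clone 1 had a median of 636 bp and those of control 764 bp.

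Another 81 genes of the pathway, in 8 roles, were examined in the same way. A gene-end peak was found at 58 in clone 1, at 50 in clone 2 and at 63 in control. Over all protein-coding genes the shares with a gene-end peak were 50.2%, 43.0% and 60.7% in the same order. Of the 63, 6 had none in clone 1 (9.52%, 3.58 to 19.6), below the 21.1% of all genes with a control gene-end peak, and 14 had none in clone 2 (22.2%, 12.7 to 34.5), against 30.1%. Both clones lacked 5 (7.94%, 2.63 to 17.6), against 15.9%. The median control score of these gene ends was 9.78, compared with 8.29 for the 10 genes above and 9.15 over all genes. By like-score shares 51.4 of the 63 would be found in clone 1 and 47.3 in clone 2, beside 57 and 49 observed. The shares count overlap with a control peak, whereas a gene was counted as observed with any gene-end peak in the clone. These measures are not alike, so no result is drawn from the difference.

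The 11 lipid remodelling genes, among them ACSL1, ACSL3 and the FADS desaturases, had a gene-end peak in every list. Glutathione and cystine genes had one at 11 of 13 in clone 1, 9 in clone 2 and 11 in control. Both roles stand beside shares of 50.2%, 43.0% and 60.7% over all genes. GLS2, a glutaminase, had 5.13 in clone 1, none in clone 2 and 7.87 in control, and SLC1A5, a glutamine transporter, had 5.62 in clone 1, none in clone 2 and 6.88 in control. Of the 7 radical trapping genes, GCH1, which starts tetrahydrobiopterin synthesis, had 5.69 in clone 1, none in clone 2 and 8.27 in control. KEAP1, the repressor of NRF2, had 6.28 in clone 1, none in clone 2 and 5.55 in control. ATF4, a stress-response factor, had 5.07 in clone 1, none in clone 2 and 7.35 in control. The like-score shares found in clone 2 were 64.9% for GLS2, 45.5% for SLC1A5, 71.2% for GCH1, 15.3% for KEAP1 and 55.2% for ATF4. NFE2L2 is the gene of NRF2 itself; it was not among the genes that differed between lists.

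The iron chaperone genes PCBP1 and PCBP2 had 5.44 and 5.95 in clone 1, no gene-end peak in clone 2, and 8.34 and 8.80 in control. CYBRD1, a ferric reductase, had 5.74 in clone 1, none in clone 2 and 6.47 in control. SLC40A1, the iron exporter ferroportin, was the 1 gene of the 81 with a control peak (8.38) that was present in clone 2 (9.15) and absent in clone 1. Of control gene-end peaks of like score, 82.6% were found in clone 1. For the clone 2 absences at PCBP2, PCBP1 and CYBRD1 the like-score shares found in clone 2 were 77.1%, 71.6% and 35.1%. Peaks of HFE, a regulator of hepcidin, of the haem oxygenase gene HMOX2 and of the biliverdin reductase gene BLVRA were in control alone, at 5.37, 5.15 and 5.47. Of like-score control gene-end peaks, only 26.6% to 29.4% were found in clone 1 and 12.4% to 14.9% in clone 2.

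Lipid peroxidation genes had a gene-end peak at 5 of 10 in clone 1, 4 in clone 2 and 6 in control, near the 50.2%, 43.0% and 60.7% over all genes. ALOX5, a lipoxygenase, had 5.6 in clone 1, 8.33 in clone 2 and none in control, and no other gene of the 81 had a gene-end peak in a clone without one in control. ALOX12 and ALOX12B had one in control alone, at 6.89 and 5.14, and CYB5R1, a reductase that feeds lipid peroxidation, had 5.43 in clone 1, none in clone 2 and 5.65 in control. Like-score shares for ALOX12 and ALOX12B were 60.3% and 26.5% in clone 1, and 46.2% and 12.4% in clone 2. For CYB5R1 the share in clone 2 was 17.5%. In all, 16 of the 81 genes had a gene-end peak in some lists and not in others, and all 16 are named here.

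**Figure D5:**
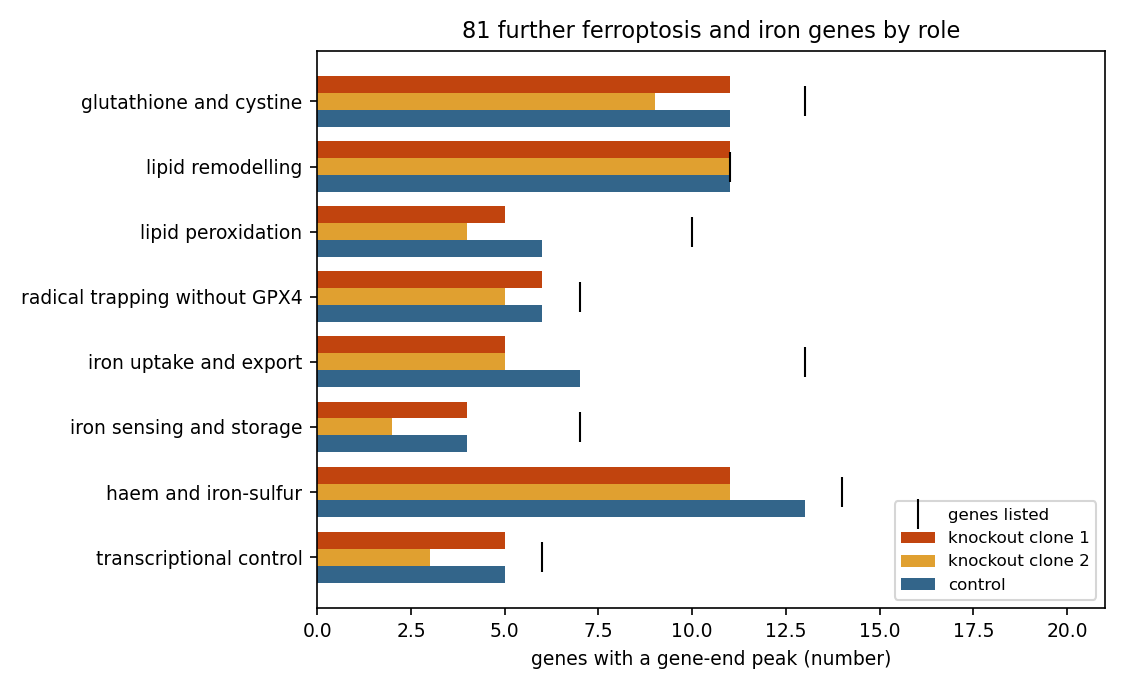
Number of further ferroptosis and iron genes with a gene-end peak in knockout clone 1, knockout clone 2 and control, by role (x axis, genes); black ticks mark how many genes were listed. All 11 lipid remodelling genes have one in every list, and lipid peroxidation shows 5, 4 and 6 of 10. Over all genes the shares are 50.2%, 43.0% and 60.7%.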

How the data were processed

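ATAC-seq peak lists of MDA-MB-436 cells were used, 1 for each of 3 groups, in which the authors had merged the peaks of 3, 2 or 3 libraries, per the labels. The deposited score is taken, from its values, for a −log10 p given by the authors' caller. No score is below 5, and several frequent scores fall on steps of a Poisson upper tail. The tail was fitted so that the most frequent score lies on a step. Of the backgrounds that allow this, the one with the most frequent scores on steps was kept. The number of scores on steps was thus maximised, and no chance level is given for it. Peaks on steps numbered 3816 of 39537 in clone 1, 2620 of 34572 in clone 2 and 4035 of 64806 in control. A score with extra decimals is taken for the mean of several merged calls, and the fewest calls that give those decimals are stated. At some peaks this number exceeds that of the libraries, so merged calls are not replicates. The tools HISAT2, MACS2 and ChIPseeker and the build hg38 are named, per the submitters' processing notes; their versions and options are not given in the sources. Deposited starts were counted from 0 and are printed counted from 1.

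Gene positions and promoters came from RefSeq tables of GRCh38.p14, with 20037 protein-coding genes on the primary chromosomes. The strand and start of SLC7A11, FTH1 and HMOX1 were not used here. Peaks were taken as shared from 1 bp of overlap. Percentages carry exact binomial (Clopper-Pearson) 95% intervals. With 1 merged list per group no test was possible and no p-value is given. The genes named were the 10 members and, of the 81 further genes, those with a gene-end peak in some lists only (at most 20). The members and lists were chosen with earlier results of these data known. Overlap and gene-end counts were tested on simulated data. Alternatives were another gene-end distance, flank, overlap, score minimum or list length. Python 3.11.15, pandas 2.3.3, numpy 2.4.6 and scipy 1.17.1 were used.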

Additional observations from a re-analysis of the deposited data

How the results depend on the processing

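Of 42 recomputed values, 38 stayed within 1.5 times the reported count or within the interval of the reported share. When gene ends were replaced by transcription starts, used here for 7 of the 10 genes and not for SLC7A11, FTH1 and HMOX1, 3 of the 7 had a peak in clone 2. The count of 5 by gene ends includes SLC7A11 and FTH1. With only peaks above the median score of their own list, 38 of the 81 further genes had a gene-end peak in clone 1 and 30 in clone 2. When a clone 2 peak had to cover at least 50% of a control peak, 88.5% of the 26 control peaks were absent in clone 2; clone 2 peaks are narrower. At the above-median setting AIFM2 and GPX4 had no gene-end peak in clone 1, FTH1 none in clone 2, and AIFM2, FTH1 and FTL none in control, and at 3 kb HMOX1 gained one in clone 1. With lists of equal length, 7 of the 10 genes had a gene-end peak in control, and 37.5% and 43.8% of 16 control peaks were absent in clone 1 and clone 2. Shares over all genes and all control peaks are not given at these other settings. The changed values are therefore not read as particular to these genes. The equal-length setting for the 81 genes, the like-score shares of gene-end peaks and the region around ACSL4 were chosen after seeing the data. Leaving out a replicate was not run, because the lists hold merged replicates. No paired analysis was possible because each group is 1 merged list without replicate columns.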

Other observations

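The 8 control peaks scoring at least as high as the inner ACSL4 peak and absent in both clones include 2 within 1 Mb of the ACSL4 start on chromosome X: the ACSL4 peak itself, with a score of 13.1 and a width of 249 bp, and one at 109374665 to 109374844, with 13.2 and 180 bp. The other 6 lie elsewhere.

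G and C content was compared over genes with a control gene-end peak and 1 RefSeq promoter window each. The median was 65.2% for 8018 genes that clone 1 also had open at an end and 64.4% for the 1995 that it had not. It was 65.2% for 7152 genes that clone 2 also had open at an end and 65.2% for the 2861 that it had not. Among the 7 members with a window, those of ACSL4, LPCAT3 and NCOA4, which had a clone 2 peak, held 77.2%, 69.2% and 52.0%, and those of TFRC, GPX4, FTL and AIFM2, which had none, held 74.4%, 69.6%, 67.6% and 66.8%.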
